A study of Homo sapiens with 2 samples.

Results

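The genes described here regulate RAB GTPases or act with them, and were taken by a rule on gene names that uses no expression value. A probe set, the group of probes that reads one transcript on the array, was a member when its annotated symbol began with one of a fixed set of stems (RAB plus a digit, RABGAP, RABGEF, RABEP, RABIF, TBC1D, DENND, GDI and the like). The rule took 34 of the 13864 named genes, each read by 1 probe set. RefSeq lists 68 protein-coding RAB and RABL GTPases, of which 1, RAB6D, had a named probe set here, and 44 TBC1D genes, of which 2 had. Of its 17 DENND genes, 14 had one. The annotation used here names 59.6% of the probe sets, and whether any of the others reads a RAB GTPase was not tested. No GTPase could therefore be set beside its own regulators, and the values describe regulators, effectors and chaperones. The other GTPases were not analysed here.

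The RNA came from PC3, an established human prostate cancer cell line, grown in medium with serum. The control sample stably overexpressed a control miR. The other sample stably overexpressed miR-95. Both were hybridised as biotin-labelled target to an Affymetrix gene array, and each group holds 1 sample, so every value below is without a replicate error and without a test, and the number of arrays limits the precision. Whether each line is a pool or a single clone, and which vector it carries, is not stated in the labels.

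RAB proteins are small GTPases that mark membranes and recruit the machinery that moves, tethers and fuses vesicles. A guanine nucleotide exchange factor (activator) loads the RAB with GTP, often through a DENN domain, and a GTPase-activating protein (inactivator), often with a TBC domain, brings about hydrolysis of that GTP. Escort proteins (REP) present new RABs for prenylation, and GDI proteins draw the inactive form from the membrane and keep it soluble.

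The manipulated RNA is shown first, because every comparison below turns on it. MiR-95 is made from a hairpin that can give 2 mature arms, printed 5′ to 3′ with the seed, bases 2 to 8, in capitals (RefSeq, GRCh38.p14). The arms lie on the minus strand at chr4:8005312-8005333 (3p) and chr4:8005347-8005367 (5p). The labels do not say which arm was overexpressed.
hsa-miR-95-3p: uUCAACGGguauuuauugagca
hsa-miR-95-5p: uCAAUAAAugucuguugaauu
Of the 2370 mature miRNAs in the RefSeq table, 1 carried each of these seeds, namely the arm itself. Target sites in the members were not searched, since no 3′ untranslated sequence was used here.

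Both arrays gave a similar picture, with a Pearson correlation of 0.9959 over all 23641 probe sets. Deposited log2 values are given as a pair, and each difference is miR-95 minus control after the median over all genes (7.46 on the control, 7.495 on the miR-95 array) was subtracted, a centring that takes 0.035 off each difference. A gene counted as detected when at least 1 of its values reached the median of that array, which 7081 genes did. Of the epithelial and line markers, 7 of 8 measured were detected on the arrays, including KRT8, KRT18, KRT19 and EPCAM. Their summed deposited log2 values over the 8, including KRT5 below the limit, were 65.94 on the control and 65.95 on the miR-95 array. The differences after centring, which takes 0.035 off each gene and is not in these sums, went both ways. They ran from CD44 at -0.325 (8.53 and 8.24) and EPCAM at -0.195 to KRT19 at 0.145. The part of these differences in the results below was not tested. The androgen response genes KLK2 and KLK3 lay below the limit on both arrays, and so did all 5 measured markers of other cells (range 5.27 to 7.33 on the control and 5.26 to 6.41 on the miR-95 array). Among the latter, the stromal gene LUM read 7.33 and 6.04, and its part in any difference below was not tested.

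No detected member differed by 1.5-fold or more between the arrays. Of the 34 members 25 were detected and 9 lay below the limit on both arrays. With 0 of 25 members past 1.5-fold in either direction, the background is 1.26% of all detected genes (0.395% higher and 0.861% lower), so 25 genes are too few for a count of 0 to set the members apart. At 2-fold the background was 0.0141%. At 1.2-fold, a limit chosen after the values were seen, 5 members (20.0%) passed against 13.9% of detected genes, which is not read as a difference with so few members. Of these, 2 were higher (8.0%, background 5.48%) and 3 lower (12.0%, background 8.45%). One of the higher ones, TBC1D3P1-DHX40P1, was detected only through the miR-95 array, and with both arrays required to reach their median the split was 1 higher and 3 lower of 22 members, against a background of 13.0% either way. The lower ones RABGAP1 and TBC1D31 lay just past that limit, and with the values as deposited the split was 3 higher and 1 lower, against 502 higher and 430 lower among all detected genes.

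The members were spread about as widely as the rest. Their differences ran from -0.355 to 0.375 with a median of -0.015 and a robust SD of 0.178, against a median of -0.035 and a robust SD of 0.148 over all detected genes. After centring 15 of 25 members (60.0%) had a negative difference, against 59.4% of all detected genes. With the values as deposited 9 were negative, 14 positive and 2 at exactly 0, against 48.0% negative overall. As a guide to measurement disagreement, the 68 detected genes with several probe sets gave a spread of 0.126 within a gene, and 14 of the 25 members differed by no more than that. The 5th and 95th percentiles of detected genes were -0.325 and 0.265, and 3 members lay outside them, 12.0% against 9.86% of all detected genes. These were RABGEF1, RAB11FIP2 and the pseudogene TBC1D3P1-DHX40P1.

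**Figure D1:**
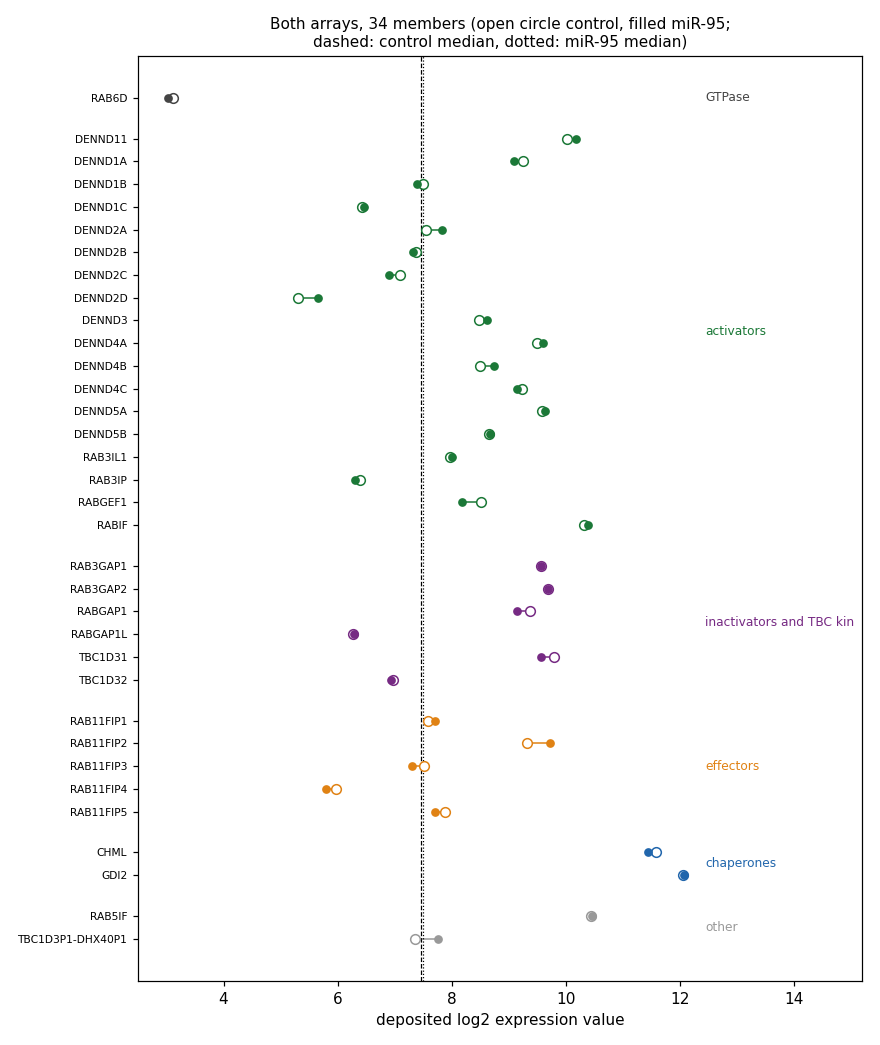
Deposited log2 values of the 34 members on both arrays (x axis), grouped by role; open circles are the control array, filled circles the miR-95 array, and the vertical lines the array medians of 7.46 and 7.495. Each gene's pair of circles lies close together, and the 9 members below the limit sit left of both lines.

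**Figure D2:**
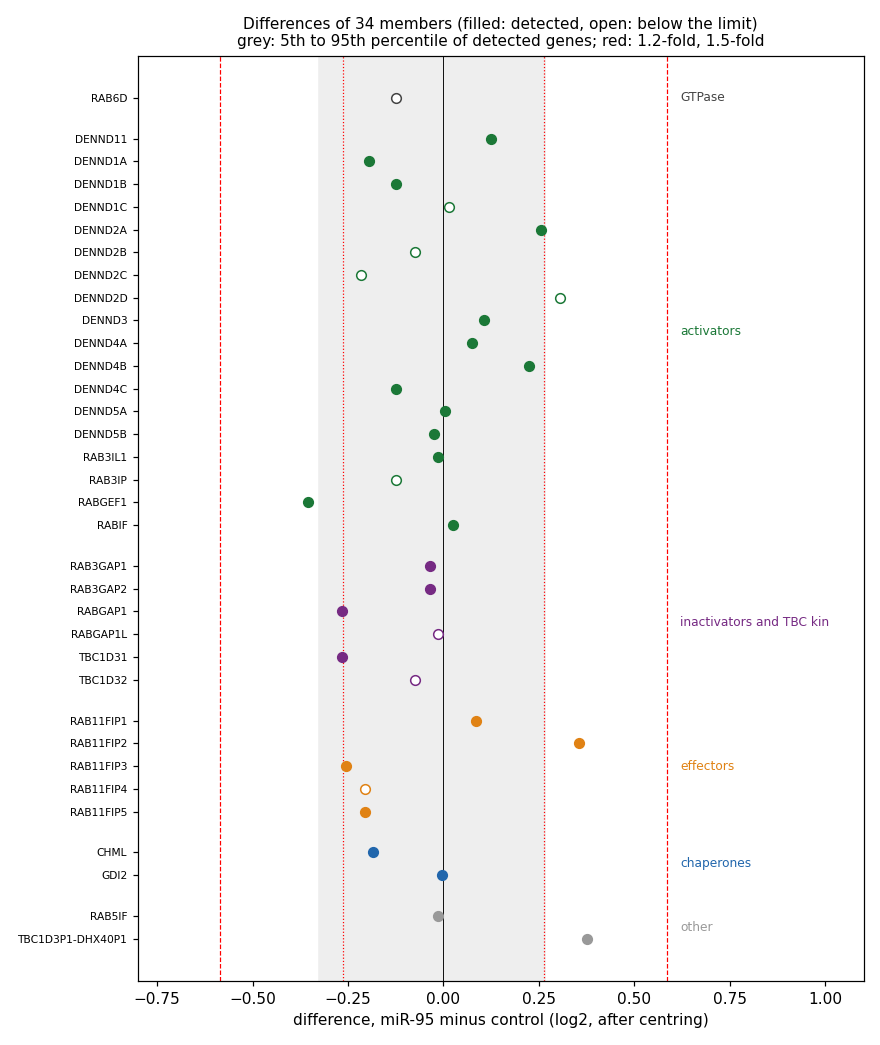
Difference of each member, miR-95 minus control in log2 units after centring (x axis), by role; filled points are detected members, open points lie below the limit, and the grey band is the 5th to 95th percentile of all detected genes. No member reaches the dashed lines at 1.5-fold, and of the filled points RABGEF1 lies to the left and RAB11FIP2 and TBC1D3P1-DHX40P1 to the right of the band.

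The only GTPase among the members, RAB6D, gave a dim signal. RAB6D is a copy of the RAB6 family, whose members serve transport at the Golgi. It read 3.11 on the control and 3.02 on the miR-95 array, both below the median, so its difference has no level behind it. Its sequence is close to that of RAB6A and RAB6C, and how far their transcripts reached its probes was not tested.

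The activators went both ways. Of 18 measured 13 were detected, 6 with a negative and 7 with a positive difference (median 0.005), and with the values as deposited the split was 4 to 9. RABGEF1 (Rabex-5), which activates RAB5 on early endosomes, had the largest difference of them, at 8.51 on the control and 8.19 on the miR-95 array. That is 1.28-fold lower after centring, a difference of -0.355 that ranks 274th from the lowest of 7081. In the third of detected genes with similar brightness, 7.79% differed from 0 by at least as much. RefSeq lists the pseudogenes RABGEF1P1 and RABGEF1P2, and signal shared with them was not tested.

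The DENN domain activators, 14 in number and 10 of them detected, had a median difference of 0.04. At 1.2-fold 0 of the 10 passed, against 13.9% of all detected genes. With only 10 genes, that count does not set them apart. DENND1A and DENND1B, which activate RAB35 in endocytic recycling, both read lower on the miR-95 array. However, DENND1B was detected only through the control array, where it was higher. DENND1A read 9.25 and 9.09 (difference -0.195) and DENND1B 7.49 and 7.40 (difference -0.125), while the third member, DENND1C, was below the limit at 6.42 and 6.47. The differences of this subfamily covered a range of 0.21, and the difference of DENND1A, not that of DENND1B, exceeded the 0.126 spread within a gene.

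The DENND4 genes, all 3 detected, encode activators of RAB10, which acts in exocytosis. DENND4B read higher on the miR-95 array, at 8.49 on the control and 8.75 (1.17-fold after centring). DENND4A read 9.49 and 9.60 (difference 0.075) and DENND4C read 9.24 and 9.15 (difference -0.125). The 3 paralogs thus did not share a direction, and their differences covered a range of 0.35.

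The DENND2 genes are linked to RAB9 and, for DENND2B, to RAB13. DENND2A was the one detected, at 7.55 and 7.84, 1.19-fold higher after centring. The others lay below the limit on both arrays. DENND2D read 5.31 and 5.65, DENND2C read 7.09 and 6.91, and DENND2B read 7.37 and 7.33, just under the medians.

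The remaining activators differed by no more than 0.125 either way. DENND5A and DENND5B, linked to RAB39 and, for DENND5A, to RAB6, differed by 0.005 (9.59 and 9.63) and -0.025 (8.66 and 8.67). DENND3, which activates RAB12, read 8.48 and 8.62 (difference 0.105). DENND11, a further DENN domain protein, read 10.03 and 10.19 (difference 0.125). RABIF (MSS4), which binds nucleotide-free RABs of the exocytic route, read 10.33 and 10.39 (difference 0.025). The RAB8 activator RAB3IL1 read 7.98 and 8.0 (difference -0.015), while its paralog RAB3IP (Rabin8), which takes part in forming the primary cilium, lay below the limit at 6.40 and 6.31.

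The inactivators and their TBC kin were at or below 0 after centring. Of 6 measured 4 were detected, each with a negative difference after centring. Their median of -0.15 rests on few genes. It was -0.055 with no filter on dim genes, -0.265 with the RAB3GAP genes counted as activators, and -0.035, the median of all detected genes, without the TBC1D genes. With the values as deposited 2 were negative and 2 at exactly 0, and after loess 2 of 4 were positive. RABGAP1, a TBC protein reported to act on RAB6, read 9.37 on the control and 9.14 on the miR-95 array, 1.2-fold lower after centring. TBC1D31, a TBC domain protein of centriolar satellites, read 9.80 and 9.57, the same fold. The share of detected genes of similar brightness at least that far from 0 was 14.5% for both. Their relatives lay below the limit, RABGAP1L at 6.27 and 6.29 and the ciliary gene TBC1D32 at 6.98 and 6.94. In RefSeq the gene span of RABGAP1 contains GPR21, itself below the limit at 6.51 and 6.03.

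The subunits of the RAB3GAP complex had the same difference, the closest match among the 9 subfamilies of members compared. RAB3GAP1, the catalytic subunit, read 9.57 on both arrays, and RAB3GAP2, the other subunit, read 9.69 on both. Both therefore differed by -0.035 after centring, which is the centring shift itself and the median of all detected genes. This complex inactivates RAB3 on secretory vesicles and activates RAB18 at the endoplasmic reticulum and lipid droplets.

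The RAB11 effectors of the RAB11FIP family, adaptors that link recycling endosomes to motors and to other RABs, showed the widest spread within a family, with class I differences covering 0.56. Of 5 measured 4 were detected, 2 negative and 2 positive. Their median of -0.06 had no stable direction, at -0.205 when dim genes were kept and 0.085 with both arrays required to reach their median. RAB11FIP2, a class I member, was the highest of them, at 9.33 on the control and 9.72 on the miR-95 array. That is 1.28-fold higher after centring, ranking 156th from the highest of 7081, and 7.24% of detected genes of similar brightness differed at least as much. Its class I relative RAB11FIP5 went the other way, at 7.88 and 7.71 (1.15-fold lower), and RAB11FIP1, the third of that class, read 7.58 and 7.70 (1.06-fold higher).

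Both class II effectors read lower on the miR-95 array, the detected one under every scaling tried. RAB11FIP3, which acts in cytokinesis, read 7.52 and 7.30, 1.19-fold lower after centring. It was detected only through the control array, since 7.30 lies below the miR-95 median. RAB11FIP4 lay below the limit at 5.97 and 5.80. The members nearest the limit were on the upper side DENND1B (7.49 and 7.40), RAB11FIP3 and TBC1D3P1-DHX40P1 (7.36 and 7.77), each carried by 1 array alone, and on the lower side DENND2B, DENND2C and TBC1D32.

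The chaperones moved little. GDI2, the widely expressed GDI isoform, read 12.05 and 12.08 (difference -0.005). CHML (REP2), an escort protein, read 11.59 and 11.44, 1.14-fold lower after centring, and 24.0% of detected genes of similar brightness differed at least as much. CHML lies within the span of OPN3 in RefSeq, which read 9.69 and 9.68.

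Of the members that share only the name, RAB5IF, a small protein of the endoplasmic reticulum membrane, read 10.44 and 10.46 (difference -0.015). TBC1D3P1-DHX40P1, a transcribed read-through of the pseudogenes TBC1D3P1 and DHX40P1, had the highest difference of all members. It read 7.36 on the control and 7.77 on the miR-95 array (1.30-fold higher after centring). Its control value lies below the median. The TBC1D3 family has many near-identical copies, so which copy its probes read is uncertain. Signal shared with DHX40 was not tested either. That gene read 10.26 on the control and 10.65 on the miR-95 array (difference 0.355).

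**Figure D3:**
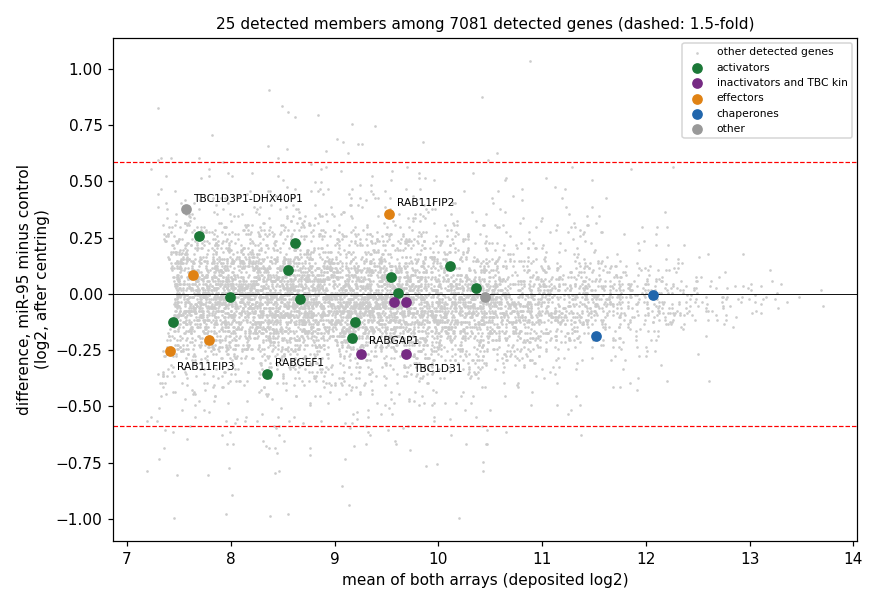
Difference, miR-95 minus control in log2 units after centring (y axis), against the mean deposited log2 value of both arrays (x axis) for all 7081 detected genes (grey) and the 25 detected members (coloured by role). All members lie inside the dashed lines at 1.5-fold and among the bulk of the grey points.

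The members' genes were long. Their median span in RefSeq was 92.5 kb, against 29.4 kb over all detected genes. Over all 7081 detected genes the difference was lower in longer genes (Spearman's rho = -0.238), and over the 25 members it was so too (rho = -0.402), given as a description, with genes of one pair of arrays as points. The 12 shorter members had a median difference of 0.055 and the 13 longer ones of -0.125. Among the longer, DENND1B (277.4 kb, difference -0.125) and RAB11FIP3 (97.4 kb, -0.255) were detected only through the control array. TBC1D3P1-DHX40P1 (56.7 kb, 0.375), among the shorter, was detected only through the miR-95 array. The detection filter favours the signs of these genes, which go the way of the gap. Medians and rho without them were not computed. RABGEF1 (156.9 kb) and RABGAP1 (173.2 kb) are among the longer, and RAB11FIP2 (42.0 kb) among the shorter. The part of gene length in these differences was not tested.

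**Figure D4:**
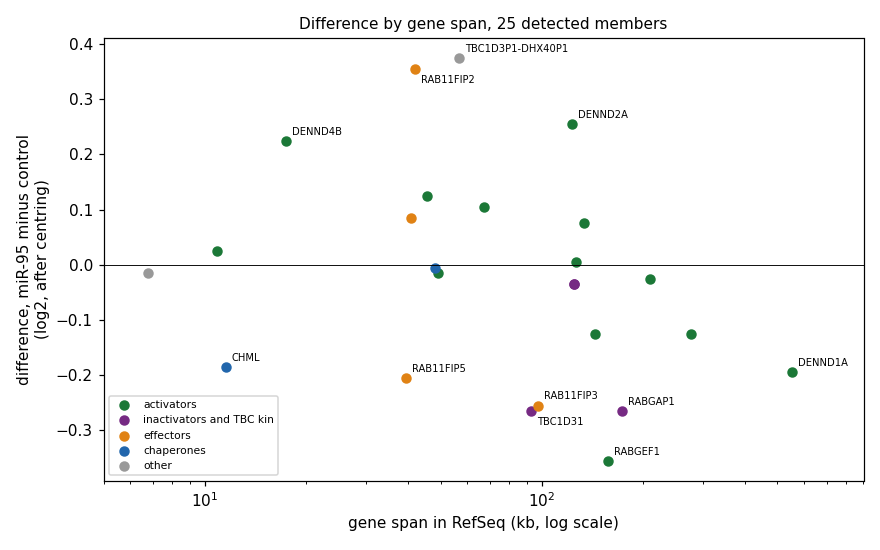
Difference, miR-95 minus control in log2 units after centring (y axis), against gene span in RefSeq in kb on a log scale (x axis) for the 25 detected members, coloured by role. Most of the 13 longer members lie below 0, among them RABGEF1 and RABGAP1. DENND1B and RAB11FIP3, also below 0, were detected through the control array alone, and TBC1D3P1-DHX40P1, above 0, through the miR-95 array alone.

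The start-site sequences of related members with unlike or like values are shown next, as the 150 bases upstream of the annotated start (RefSeq, GRCh38.p14), 5′ to 3′ on the gene's strand. The first pair are the class I effectors RAB11FIP2 and RAB11FIP5, which differed in opposite directions, and the second the subunits RAB3GAP1 and RAB3GAP2, which read the same on both arrays. Capitals mark matches on either strand to the GC box, spelled GGGCGG, the CCAAT box, the TATA box, spelled TATAAA, the full CRE, spelled TGACGTCA, the E-box, spelled CACGTG, or the ETS core, spelled CCGGAA.
RAB11FIP2, chr10:118046942-118047091, minus strand: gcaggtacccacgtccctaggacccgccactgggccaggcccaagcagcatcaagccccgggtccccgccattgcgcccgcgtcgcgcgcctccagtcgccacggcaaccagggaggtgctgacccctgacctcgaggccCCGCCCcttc
RAB11FIP5, chr2:73112949-73113098, minus strand: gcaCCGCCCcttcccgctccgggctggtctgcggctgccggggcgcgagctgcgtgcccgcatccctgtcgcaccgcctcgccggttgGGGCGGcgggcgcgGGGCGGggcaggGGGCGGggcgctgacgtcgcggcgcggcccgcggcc
RAB3GAP1, chr2:135052142-135052291, plus strand: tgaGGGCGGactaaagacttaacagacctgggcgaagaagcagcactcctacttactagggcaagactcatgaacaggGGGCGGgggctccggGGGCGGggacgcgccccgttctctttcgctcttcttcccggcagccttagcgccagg
RAB3GAP2, chr1:220272454-220272603, minus strand: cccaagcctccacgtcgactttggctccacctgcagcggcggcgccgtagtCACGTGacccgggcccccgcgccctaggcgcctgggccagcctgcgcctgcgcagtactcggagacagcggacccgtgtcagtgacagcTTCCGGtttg
The stretch of RAB11FIP2 held 1 GC box and 14 CG dinucleotides, that of RAB11FIP5 4 GC boxes and 27 CG dinucleotides. RAB3GAP1 had 3 GC boxes, and RAB3GAP2 had 0, with 1 E-box and 1 ETS core instead. The subunits with like values thus shared none of the searched motifs in this stretch. Such matches are descriptions of letters, not sites of binding.

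Promoter windows of 300 bases (250 before to 50 after a start) were found for 29 of the 34 members, 53 windows in all, of which RABGAP1L has 8. The median window held 25 CG dinucleotides, against 14 over all 35116 windows, and its GC content was 67.0% against 58.7%. The full set covers 27305 genes, whether measured here or not, so it is not matched to the members. The GC box was in 31 of the 53 windows (58.5%, against 45.0% of all windows), and the ETS core in 11 (20.8% against 17.2%). The CCAAT box was in 11 (20.8% against 34.6%), the TATA box in 4 (7.55% against 11.5%), the E-box in 3 (5.66% against 7.26%) and the full CRE in 3 (5.66% against 1.85%). No motif contains another, and windows of one gene can overlap.

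Other genes of the RAB pathway, which the name rule does not take, were counted from a list of 113, of which 85 were measured and 69 detected. None of the 69 passed 1.5-fold, and at 1.2-fold 1 was higher and 6 lower, against 5.48% and 8.45% of all detected genes. The median difference was -0.035, equal to that of all detected genes. The 7 genes past 1.2-fold came from several roles, and 2 of the 6 lower ones, TRAPPC2 and SYTL4, were detected only through the control array, where they were higher.

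Among the other activators (25 detected, median -0.025), TRAPPC2 and TRAPPC11, subunits of the TRAPP tethering complexes, were lower. TRAPPC2 read 7.5 and 7.14 (1.31-fold lower), so it was detected through the control array alone, and TRAPPC11 read 9.17 and 8.93 (1.21-fold lower). MADD, which activates RAB3 and RAB27, read 9.43 and 9.55, and RIN2, which acts on RAB5, 11.65 and 11.73. Of the other inactivators (7 detected, median 0.005), EVI5, a TBC protein that acts on RAB11, was the lowest of the list at 9.15 and 8.78 (1.32-fold lower). SGSM2, a further TBC protein, read 8.26 and 8.55 (1.19-fold higher). The single measured gene of prenylation and membrane insertion, RABAC1, read 9.57 and 9.84 (1.18-fold higher).

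The effectors and tethers had 27 of 36 detected genes negative (75%, median -0.08), against 59.4% of all detected genes. With the values as deposited 22 of 36 were negative, against 48.0% of all detected genes. Among the negative ones, SYTL2 (7.5 and 7.42) and SYTL4 were detected only through the control array, where they were higher. Neither share is read as a difference. BICD1, which links RAB6 vesicles to dynein, read 8.33 and 7.98 (1.31-fold lower), and SYTL4, a RAB27 effector of granule secretion, 7.46 and 7.14 (1.28-fold lower), detected through the control array alone. EEA1, the RAB5 effector that tethers early endosomes, read 10.40 and 10.30. FYCO1, a RAB7 effector of autophagosome transport, was the highest of the list at 8.94 and 9.37 (1.31-fold higher). All 8 measured subunits of the exocyst, the complex that tethers secretory vesicles to the plasma membrane, were detected and negative after centring, from -0.295 for EXOC2 to -0.015 for EXOC3, and 6 of the 8 were negative with the values as deposited, after quantile normalization and after loess. The exocyst was singled out after its values were seen. Of all detected genes 59.4% were negative after centring and 48.0% as deposited. The share was 48.8% after quantile normalization and 50.4% after loess.

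**Figure D5:**
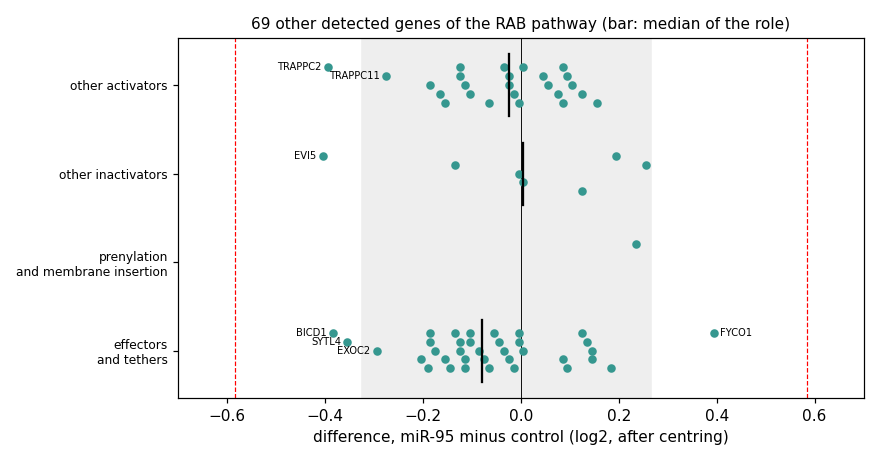
Difference, miR-95 minus control in log2 units after centring (x axis), of the 69 other detected genes of the RAB pathway by role (rows); bars are medians of roles with several genes, and the grey band is the 5th to 95th percentile of detected genes. No gene reaches the dashed lines at 1.5-fold, and FYCO1 at the right and EVI5 at the left lie farthest out.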

How the data were processed

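RNA from 2 samples was measured on 1 array each. The deposited table holds log2 expression values for 23641 probe sets, from 1.79 to 13.84. Per the submitters' processing notes, the authors used Affymetrix Expression Console 1.2. How probes were summarised, any background correction and the genome build are not stated in the labels. The platform annotation named 14088 probe sets (59.6%), giving 13864 genes. The other probe sets entered no comparison.

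Probe sets of a gene were averaged, and each array was centred on its median over genes. Detection required the higher value to reach its array's median. Folds were counted at 1.5, 2 and 1.2. No test was possible with 1 sample a group. The calls at 1.5-fold were tested on simulated data with planted 2-fold changes. Smaller differences and the counts at 1.2-fold were not tested in this way. Gene names and spans came from RefSeq (GRCh38.p14). Python 3.11.15, numpy 2.4.6, pandas 2.3.3 and statsmodels 0.14.6 (loess, span 0.4) were used. Members, roles, lists and motifs were chosen with earlier results of these data known. All 34 members are named. The other pathway genes named are those past 1.2-fold and further examples chosen after their values were seen.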

Additional observations from a re-analysis of the deposited data

How the results depend on the processing

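With 1 array a group, no replicate could be left out, and no paired analysis was possible because the columns carry no replicate numbers and each group holds 1 sample. The count of members past 1.5-fold was 0 under each of the 9 alternatives (no centring, quantile normalization, loess, no filter on dim genes, detection at the 25th or 75th percentile or on both arrays, the brightest probe set, an offset of 32), and so was that of the other pathway genes. The count past 1.2-fold, a limit chosen after seeing the data, fell from 5 to 3 with detection at the 75th percentile, with the brightest probe set and with the offset. Only 14 members entered at the 75th percentile. With the brightest probe set and the offset, RABGAP1 and TBC1D31, just past the limit, dropped below it. The count was 4 with no centring, quantile normalization, loess and detection on both arrays, 6 with no filter and 5 at the 25th percentile. With no centring, quantile normalization and loess the split was 3 higher and 1 lower, against 2 higher and 3 lower after centring.

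The median of the effectors, -0.06 over 4 genes, moved with the genes kept. It was -0.205 with no filter and at the 25th percentile (5 genes), 0.085 with both arrays above the median (3 genes) and 0.355 at the 75th percentile (1 gene). The median of the inactivators ranged from -0.265 to -0.035. It and the medians of the members together and of the other roles moved by less than the 0.126 spread between probe sets. This held also with the RAB3GAP genes counted as activators or without the TBC1D genes among the inactivators. That spread holds no variation between cultures, so it does not show that these medians are stable. Of the 25 detected members 19 kept 1 sign under the alternatives. The exceptions were DENND5B, GDI2, RAB3GAP1, RAB3GAP2, RAB3IL1 and RAB5IF, all near 0. The planned views by compartment and by GTPase with its regulators were not run, because none of the GTPases of the 55 listed pairs had a named probe set here.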
